A study of Mus musculus with 2 samples.

Results

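Wnt ligands are secreted proteins that signal to the cell that made them or to its neighbours, and their reach is limited by other secreted proteins that bind the ligands or their receptors. The genes described here are 3 Wnt ligand genes (Wnt5a, Wnt5b and Wnt16), 6 genes for secreted Wnt regulators (Sfrp1, Sfrp2, Sfrp4, Dkk2, Dkk3 and Wif1) and 1 transcriptional target of the pathway (Axin2). They were taken by symbol, and all 10 were found among the 27998 genes counted in the files. Gene positions below are those of the GENCODE annotation of GRCm38, the assembly also named mm10, in which all 10 are protein coding. The study made 2 mm defects in the parietal bones of wild-type C57BL/6 mice and filled them with a hydrogel named CGG-Cit or a hydrogel named CGG. At day 14 the defect tissue was cut out, digested with 0.3% collagenase, passed through a 70 µm strainer and profiled by droplet single-cell RNA sequencing. There was 1 library of the CGG-Cit group and 1 of the CGG group, and the sources used here give neither the number, sex or age of the mice nor whether animals were pooled. With 1 library per hydrogel the difference between hydrogels has no replicate check, so no test was made and no p-value is given. Every interval below is an exact 95% interval that covers counting error only.

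In the canonical branch of the pathway, a Wnt ligand that binds a Frizzled receptor and an Lrp5 or Lrp6 co-receptor stabilises beta-catenin, which then acts with TCF/LEF factors on target genes. Wnt5a is best known for acting through other branches, which do not need beta-catenin. In bone, canonical signalling favours osteoblasts, and secreted inhibitors of the SFRP and Dkk families and Wif1 hold it back.

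Counts of unique molecular identifiers (UMIs, each marking 1 captured RNA molecule) totalled 106173570 in 10806 barcodes of the CGG-Cit library and 92517884 in 12527 barcodes of the CGG library, and 34 barcode sequences occurred in both. After filtering, 9971 CGG-Cit cells and 11048 CGG cells were kept and sorted into classes by how many genes of set marker lists each cell expressed; none of the 10 genes is such a marker. Only 56 CGG-Cit cells (0.562%) were gated as stromal, the class of fibroblasts and other collagen-producing cells, against 3619 CGG cells (32.8%). Those stromal cells held a median of 17103 UMIs in CGG-Cit and 2763 in CGG. In the stromal gate 1 CGG-Cit cell and 41 CGG cells sat at the minimum of 3 markers, and 7 and 581 at the minimum lead of 2 over the next class. Another 2049 CGG cells carried markers of several classes at once, of which 1549 included stromal markers, against 9 of 839 such cells in CGG-Cit. Within the stromal gate the summed level of 12 monocyte and macrophage markers was 208 CPM (UMIs per 1000000 UMIs of the class) in CGG-Cit and 612 CPM in CGG, and that of 12 neutrophil markers 677 CPM and 554 CPM; the part of these in the results below was not tested. B lineage cells (3939 in CGG-Cit, 919 in CGG, median 3268 and 2882 UMIs) are used below as a class that should lack these ligands and inhibitors.

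RefSeq promoter windows on build GRCm38.p6 matched 6 of the 10 genes, and the 250 bases before the start are shown for the 2 inhibitor genes whose stromal level was at least 2-fold lower in CGG-Cit and for the pathway target. Capitals mark a match to TATAAA, to CTTTGA (the TCF/LEF core) or to TGTGGT (the RUNX core) on either strand. The windows lie at chr3:83766071-83766320 for Sfrp2, chr3:132085042-132085291 for Dkk2 and chr11:108920099-108920348 for Axin2, all on the plus strand.
Sfrp2: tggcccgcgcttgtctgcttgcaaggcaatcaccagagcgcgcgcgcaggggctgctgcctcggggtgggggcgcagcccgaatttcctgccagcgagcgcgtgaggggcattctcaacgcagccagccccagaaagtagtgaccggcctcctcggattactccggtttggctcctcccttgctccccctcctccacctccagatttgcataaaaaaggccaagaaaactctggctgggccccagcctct
Dkk2: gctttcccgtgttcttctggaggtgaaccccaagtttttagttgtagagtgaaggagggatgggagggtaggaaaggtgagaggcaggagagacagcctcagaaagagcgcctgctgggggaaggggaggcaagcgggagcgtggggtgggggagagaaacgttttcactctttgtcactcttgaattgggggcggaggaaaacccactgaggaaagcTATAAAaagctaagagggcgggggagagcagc
Axin2: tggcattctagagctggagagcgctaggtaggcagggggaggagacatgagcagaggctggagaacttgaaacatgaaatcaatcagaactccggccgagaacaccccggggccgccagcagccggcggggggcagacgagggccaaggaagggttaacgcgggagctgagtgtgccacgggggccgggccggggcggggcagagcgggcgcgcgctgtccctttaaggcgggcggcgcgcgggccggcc
The Dkk2 window held TATAAA, as did 12.4% of 32851 promoter windows of this length, and none of the 3 windows held either core, which were present in 13.8% (TCF/LEF) and 14.0% (RUNX) of windows. The Axin2 and Sfrp2 windows were rich in G and C, at 69.2% and 63.6%, against 55.6% in Dkk2.

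All members but Axin2 had most of their UMIs in stromal cells of both libraries. Stromal cells held 93.3% of all Sfrp2 UMIs in CGG-Cit, where they were 0.562% of cells, and 93.1% in CGG. Stromal cells likewise held 92.7% and 92.6% of the Sfrp1 UMIs and 90.5% and 92.3% of the Wnt16 UMIs. Of Axin2 UMIs, stromal cells held 6.35% in CGG-Cit and 71.9% in CGG, while T and NK cells held 42.1% and 11.3%. In CGG-Cit, 6 genes passed the filter on low counts (at least 20 UMIs in both classes together and 10 CPM in the higher), and all 6 were at least 4-fold higher in stromal than in B lineage cells, as were 19.4% of the 9433 genes tested. In CGG 7 of 8 genes were, against a background of 18.3% of 9731 genes, and the eighth, Axin2, was 3.40-fold higher (2.07 to 6.02). Apart from Sfrp2 in CGG, each of these genes passed the filter only through its stromal level, so nothing is read from either count. Ratios of the called genes in CGG ran from 38.2 for Sfrp4 to 70.7 for Wnt16, and Wnt5a, with no UMI in B lineage cells, was at least 62.4-fold higher when set against a floor of 3 UMIs.

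**Figure D1:**
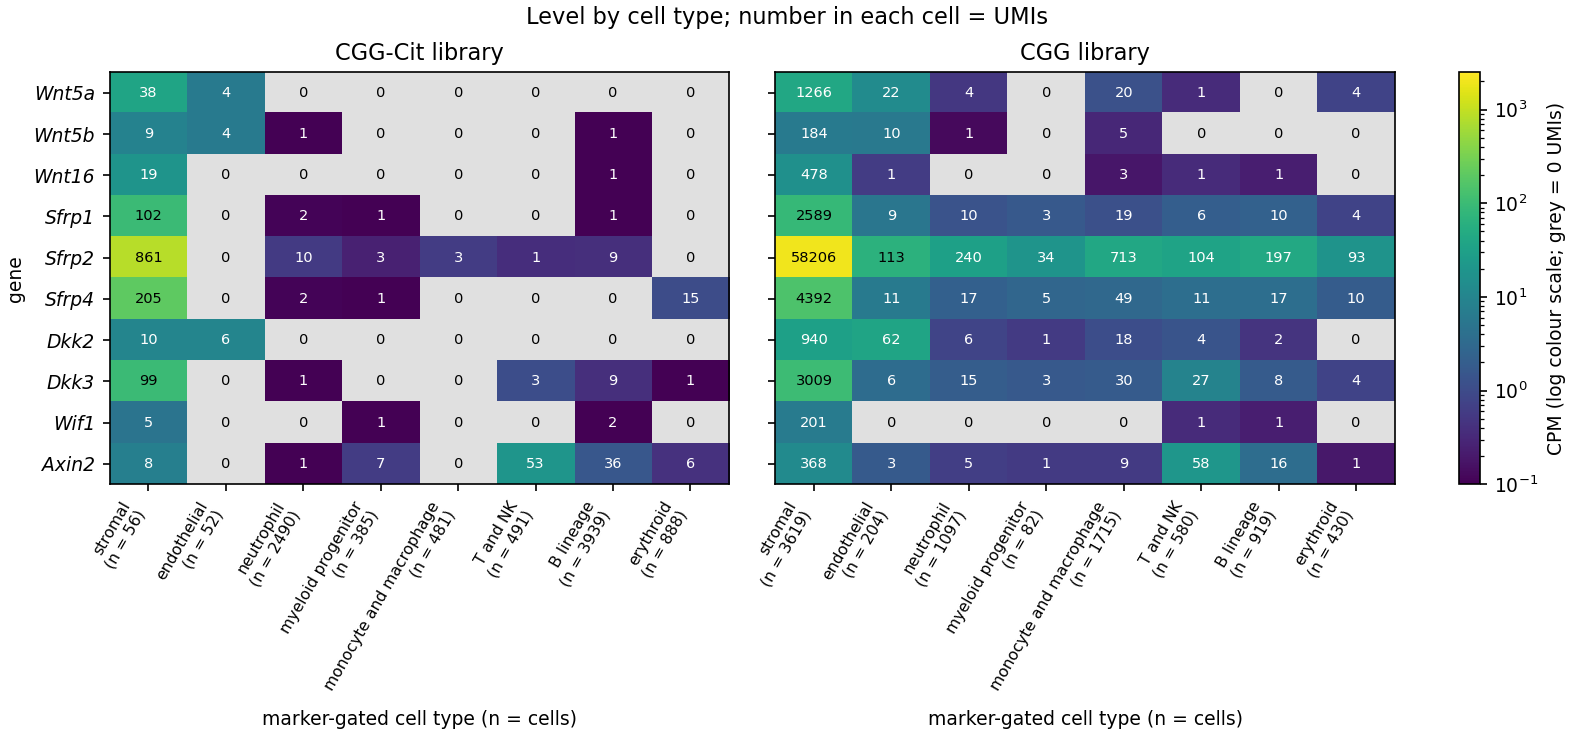
Level of the 10 genes (rows) in each cell type with at least 50 cells in both libraries (columns), CGG-Cit at left and CGG at right; colour is CPM on a log scale, the printed number is the UMI count and grey marks 0 UMIs. The stromal column carries the highest level of most genes, Axin2 is high in T and NK cells of both libraries, and Sfrp2 UMIs are spread over every CGG class (34 to 713 outside stromal cells) but number 0 to 10 in the other CGG-Cit classes.

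The libraries differed in how often Sfrp2 was counted outside stromal cells. Sfrp2 was found in 9 of 3939 CGG-Cit B lineage cells (0.228%, 0.390 CPM) and in 175 of 919 CGG B lineage cells (19.04%, 45.6 CPM). In CGG every gated class of at least 50 cells other than stromal held 17.96 to 67.0 CPM of Sfrp2, lowest in erythroid and highest in endothelial cells. These levels differ between classes beyond counting error, and no expression is read from them. Thinned to 2000 UMIs per cell, 37.7% of CGG-Cit and 70.1% of CGG stromal cells kept an Sfrp2 UMI, against 0.145% and 10.9% of B lineage cells. Thinning left out 3 CGG-Cit and 1326 CGG stromal cells and 498 and 166 B lineage cells with fewer UMIs.

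Among the ligands, Wnt5a (ENSMUSG00000021994, plus strand of chr14:28504750-28527448), which guides cell polarity and migration, had 38 UMIs in CGG-Cit stromal cells, or 37.7 CPM (26.7 to 51.8), and 1266 UMIs in CGG stromal cells, or 43.3 CPM (41.0 to 45.8). It was seen in 21 of 56 CGG-Cit stromal cells (37.5%) and 747 of 3619 CGG stromal cells (20.6%), and at equal depth in 3.77% and 8.72%. No B lineage cell of either library had a Wnt5a UMI, which at a floor of 3 cells allows a share of cells with a UMI of up to 0.0762% in CGG-Cit and 0.326% in CGG. At the depth of these cells that says nothing of how many express the gene. Vessel cells also held it. Endothelial cells had 4 Wnt5a UMIs in CGG-Cit and 22 in CGG (13.1 CPM, 8.18 to 19.8), and the CGG interval lies below the stromal one. Mural cells, the contractile cells around vessels, had 6 UMIs in 8 gated CGG-Cit cells and 8 UMIs in 46 gated CGG cells. The cluster led by the mural genes Rgs5 and Myh11 had 6 UMIs in 12 CGG-Cit cells, and 16 UMIs in 83 CGG cells (31.3 CPM, 17.9 to 50.8), which overlaps the CGG stromal interval.

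Wnt5b (ENSMUSG00000030170, minus strand of chr6:119432531-119544347), a close relative of Wnt5a known from cartilage development, was sparse, with 9 UMIs in 9 CGG-Cit stromal cells (8.94 CPM, 4.09 to 17.0) and 184 UMIs in 149 CGG stromal cells (6.30 CPM, 5.42 to 7.28). In endothelial cells it reached 6.60 CPM (4 UMIs, 1.80 to 16.9) in CGG-Cit and 5.93 CPM (10 UMIs, 2.85 to 10.9) in CGG. Stromal and endothelial levels of Wnt5b did not separate beyond their counting intervals in either library.

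Wnt16 (ENSMUSG00000029671, plus strand of chr6:22288227-22298522), known in mouse for protecting cortical bone, had 19 UMIs in 11 CGG-Cit stromal cells (18.9 CPM, 11.4 to 29.5) and 478 UMIs in 271 CGG stromal cells (16.4 CPM, 14.9 to 17.9). Outside stromal and mixed cells it was close to absent, with 1 UMI in CGG-Cit and 8 in CGG. Of the 3 ligands it had the smallest share of its CGG UMIs in endothelial cells, 0.193% against 1.57% for Wnt5a and 4.57% for Wnt5b.

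The SFRP genes encode soluble proteins that carry a Frizzled-like domain and bind Wnt ligands. Sfrp2 (ENSMUSG00000027996, plus strand of chr3:83766321-83774316) had 861 UMIs in CGG-Cit stromal cells, or 855 CPM (799 to 914), and 58206 UMIs in CGG stromal cells, or 1992 CPM (1976 to 2008). It was found in 28 of 56 CGG-Cit stromal cells and 2823 of 3619 CGG stromal cells (78.0%), although the CGG cells were shallower. The levels stand apart, with the CGG-Cit interval wholly below that of CGG. The 2 cells with most Sfrp2 held 143 and 126 UMIs in CGG-Cit, 31.2% of its stromal total, and 858 and 446 UMIs in CGG, 2.24% of the total. An antisense gene, Gm26771, overlaps Sfrp2 exons and had 20 UMIs in CGG-Cit and 2386 in CGG stromal cells; the sources used here do not state whether counting used strand. Antisense genes that overlap Wnt5a and Axin2 exons held at most 2 UMIs per library there.

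Sfrp1 (ENSMUSG00000031548, plus strand of chr8:23411502-23449632), whose loss raises trabecular bone in mice, had 102 UMIs in 25 CGG-Cit stromal cells (101 CPM, 82.6 to 123) and 2589 UMIs in 878 CGG stromal cells (88.6 CPM, 85.2 to 92.1). In B lineage cells it had 1 UMI (0.0433 CPM) in CGG-Cit and 10 UMIs (2.31 CPM) in CGG. The 8 CGG cells gated as glia held 32 Sfrp1 UMIs in 5 cells, and the CGG-Cit library had no such cell.

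Sfrp4 (ENSMUSG00000021319, plus strand of chr13:19623104-19632994), mutated in a human disorder of thin cortical bone, had 205 UMIs in 27 CGG-Cit stromal cells (204 CPM, 177 to 233) and 4392 UMIs in 1006 CGG stromal cells (150.3 CPM, 145.9 to 154.8). Erythroid cells of CGG-Cit held 15 Sfrp4 UMIs in 11 of 888 cells (1.06 CPM), while the 3939 B lineage cells of that library held none. CGG erythroid cells held 10 UMIs (1.93 CPM) and CGG B lineage cells 17 (3.93 CPM).

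Among the Dickkopf genes, Dkk2 (ENSMUSG00000028031, plus strand of chr3:132085292-132180304) encodes a ligand of Lrp5 and Lrp6 that mostly blocks canonical signalling. Dkk2 had 10 UMIs in 5 CGG-Cit stromal cells (9.93 CPM, 4.76 to 18.3) and 940 UMIs in 373 CGG stromal cells (32.2 CPM, 30.1 to 34.3). It was also found in endothelial cells, which held 6 UMIs in 52 CGG-Cit cells (9.91 CPM, 3.64 to 21.6) and 62 UMIs in 30 of 204 CGG cells (36.8 CPM, 28.2 to 47.1). Endothelial and stromal levels did not separate beyond counting error in either library. In CGG the endothelial level was 79.5-fold (21.1 to 671) that of B lineage cells, which held 2 UMIs. Dkk2 and Wnt5a were the 2 of 3 members tested that were at least 4-fold higher there, against 16.9% of genes. Both passed the filter only through their endothelial level, so nothing is read from that count.

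Dkk3 (ENSMUSG00000030772, minus strand of chr7:112116017-112159057), a divergent family member that does not bind Lrp5 or Lrp6 in the usual way, had 99 UMIs in 36 of 56 CGG-Cit stromal cells (98.3 CPM, 79.9 to 120) and 3009 UMIs in 1211 CGG stromal cells (103 CPM, 99.3 to 107). Dkk3 was also found in a lymphoid cluster led by Il17a, Cd163l1 and Cxcr6, with 3 UMIs in 63 CGG-Cit cells (10.2 CPM, 2.10 to 29.7) and 32 UMIs in 23 of 180 CGG cells (45.1 CPM, 30.9 to 63.7). A second T cell cluster, led by Cd3d and Cd8b1, held 0 Dkk3 UMIs in 335 CGG-Cit cells and 8 in 438 CGG cells (3.66 CPM, 1.58 to 7.21). The CGG intervals of the 2 clusters do not overlap.

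Wif1 (ENSMUSG00000020218, plus strand of chr10:121033960-121100650), which binds Wnt proteins directly and marks maturing osteoblasts, had 5 UMIs in 3 CGG-Cit stromal cells (4.96 CPM, 1.61 to 11.6) and 201 UMIs in 65 CGG stromal cells (6.88 CPM, 5.96 to 7.90). Its UMIs were concentrated in few cells: 89 of the 201 CGG UMIs came from 2 cells with 53 and 36. The 11 CGG cells gated as osteoblast lineage held 106 UMIs in 6 cells, 52.7% of the stromal total, and the other 95 UMIs lay in 59 of 3608 stromal cells. The CGG-Cit library had no cell in the osteoblast lineage gate.

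Axin2 (ENSMUSG00000000142, plus strand of chr11:108920349-108950783) encodes a scaffold protein inside the cell; it is a beta-catenin target that feeds back to slow the pathway. In stromal cells it had 8 UMIs in 7 CGG-Cit cells (7.94 CPM, 3.43 to 15.7) and 368 UMIs in 274 CGG cells (12.6 CPM, 11.3 to 13.9). T and NK cells stood at 19.6 CPM (53 UMIs, 14.7 to 25.6) in CGG-Cit and 20.1 CPM (58 UMIs, 15.2 to 25.96) in CGG, a ratio of 0.974 (0.658 to 1.44). Between T and NK and stromal cells the intervals overlap in CGG-Cit and are separate in CGG. Axin2 was present in 49 of 491 CGG-Cit T and NK cells (9.98%) and 50 of 580 CGG ones (8.62%), against 0.914% and 1.74% of B lineage cells. The median depths were 4833 UMIs in CGG-Cit and 4288 in CGG T and NK cells, and at 2000 UMIs, with 15 and 19 shallower cells left out, the shares were 4.62% and 3.39%, against 0.320% and 1.06% of B lineage cells. T and NK cells exceeded B lineage cells 12.6-fold (8.07 to 19.7) in CGG-Cit, where Axin2 was the 1 member tested and 8.0% of genes were at least 4-fold higher. In CGG they exceeded them 5.42-fold (3.08 to 10.1), 1 of 2 members against a background of 7.08%. In both libraries Axin2 passed the filter only through T and NK cells, where it is high, so nothing is read from these member counts.

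Within the lymphoid cells, Axin2 was unevenly spread and its order over 3 T and NK clusters was the same in both libraries. The Il17a cluster stood at 27.1 CPM (11.7 to 53.4) in CGG-Cit and 28.2 CPM (17.2 to 43.6) in CGG, and the Cd3d and Cd8b1 cluster at 26.1 CPM (19.1 to 35.0) and 22.0 CPM (16.2 to 29.1). The cluster led by Gzma, Xcl1 and Klra4, genes of NK cells, stood at 5.87 CPM (2.15 to 12.8) and 5.80 CPM (1.20 to 16.9). The first 2 clusters overlap in both libraries. The NK gene cluster separates from the Cd3d cluster in CGG-Cit and from the Il17a cluster in CGG, and overlaps the other one in each. Among B lineage clusters, one led by Myl4 and replication histone genes held 2.40 CPM (1.37 to 3.90) and 6.68 CPM (2.45 to 14.6). One led by Dntt and Vpreb1 held 2.08 CPM (0.566 to 5.31) and 8.48 CPM (3.11 to 18.4). One led by Nrgn held 2.15 CPM (1.17 to 3.60) and 2.52 CPM (0.305 to 9.09). In each library these intervals overlap that of the histone gene cluster. A cluster led by Ms4a1 and Fcmr, genes of later B cells, held no UMI in 611 CGG-Cit or 316 CGG cells.

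Stromal cells were not uniform in these genes. Marker lists split CGG stromal cells into 863 adventitial fibroblasts, 1541 matrix fibroblasts, 130 cells with markers of the dural covering of the brain (called dura-like) and 1044 others, besides 11 osteoblast lineage and 30 reticular cells. Dura-like cells, gated on Ptgds, Gjb6 and Slc47a1 among other markers, had 98.3 CPM of Wnt5a, against 39.4 in all other CGG stromal cells (ratio 2.49, 2.13 to 2.91). Wnt16 stood at 34.5 CPM against 15.1 (2.29, 1.74 to 2.97) and Sfrp4 at 302 CPM against 139.5 (2.17, 1.98 to 2.36). These were 3 of the 8 members that passed the filter, where 8.67% of 9264 genes were at least 2-fold higher in dura-like cells. The same cells were low in Sfrp2 at 52.5 CPM against 2130 (40.6-fold lower, 33.4 to 49.8), in Dkk2 at 3.09 CPM against 34.2 (11.1-fold lower, 5.07 to 30.3) and in Sfrp1 at 29.3 CPM against 92.8 (3.16-fold lower, 2.43 to 4.19). Dura-like Sfrp2 lay near the 45.6 CPM seen in CGG B lineage cells.

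Adventitial fibroblasts, gated on Pi16 and Dpp4 among other markers, had the highest Sfrp2 of the subtypes of at least 50 cells, 2803 CPM. They also had the highest Sfrp1 (115 CPM) and Dkk2 (42.3 CPM). No member was 2-fold higher there than in the other stromal cells, against 3.39% of genes. Matrix fibroblasts, gated on Fmod among other markers, had the highest Axin2 (16.6 CPM, against 8.91 in other stromal cells) and Wnt5b (9.31 CPM against 3.50). They had the lowest Sfrp4 (85.8 CPM). No tested member was 2-fold higher there, against 1.81% of genes, and Wnt5b was below the filter. Adventitial cells had 7.18 CPM of Axin2, the lowest of the subtypes of that size.

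Clusters of the 1353 CGG stromal cells with at least 5000 UMIs, made without any gene of the Wnt pathway list, drew the same genes apart further. Over the clusters of at least 50 cells, Sfrp2 ran from 77.4 CPM (164 UMIs) in a cluster led by Col4a1 and Col4a2 and 125 CPM in the cluster led by Ptgds and Slc47a1, to 4982 CPM (11012 UMIs) in a cluster led by Mmp3, Dpep1 and C3. Sfrp1 was also highest in the Mmp3 cluster, at 223 CPM, but lowest in the cluster led by Chad, Mmp13 and Comp, at 10.8 CPM. A cluster with Pi16 among its leading genes, nearly all adventitial by gate, stood at 62.8 CPM of Sfrp1, against 95.9 CPM in all 1353 cells. Sfrp4 had another order, with 329 CPM in the Col4a1 cluster, 271 CPM in the Slc47a1 cluster and 41.5 CPM in the Chad cluster. The Chad cluster had the highest Wnt5b (20.3 CPM, 66 UMIs), Dkk3 (156 CPM) and Axin2 (21.5 CPM, 70 UMIs). Wif1 was highest, at 56.5 CPM (125 UMIs in 13 of 104 cells), in the cluster led by Bglap, Tnn and Tnfsf11. Bglap is a marker of the osteoblast lineage gate and Tnn of the matrix fibroblast gate. By gate, with both libraries counted, 94 cells of this cluster were matrix fibroblasts and 6 were osteoblast lineage. Wif1 had no UMI in the Pi16 and C1qtnf3 clusters. The 2 cells with 53 and 36 Wif1 UMIs lay in the Bglap cluster, which without them stood at 16.9 CPM (36 UMIs). The Bglap cluster also stood at 19.9 CPM of Axin2, close to the Chad cluster.

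Against the other deep CGG stromal cells, these clusters had 0 to 3 tested members at least 2-fold higher. The Mmp3 cluster had 3 of 8 (Sfrp2 at 2.72-fold, Sfrp1 at 2.67 and Wnt16 at 2.15), where 1.55% of genes were, and the Slc47a1 cluster had 2 of 8 (Wnt5a at 2.29-fold and Wnt16 at 2.23), where 10.7% were. Sfrp1 was the 1 member higher in the C1qtnf3 cluster, at 2.16-fold (2.32% of genes), and in a cluster led by Il6 and Cxcl14, at 2.55-fold (1.59%), as was Sfrp4 in the Col4a1 cluster, at 2.25-fold (3.68%). In the Chad cluster (3.88% of genes) and the Bglap cluster (2.38%) the 1 member past 2-fold was Wnt5b and Wif1 in turn; each passed the filter there only through the cluster where it is high, so nothing is read from that count. No member was in the Pi16 cluster (5.42% of genes) or in a cluster led by the neutrophil granule gene Elane (11.0%).

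**Figure D2:**
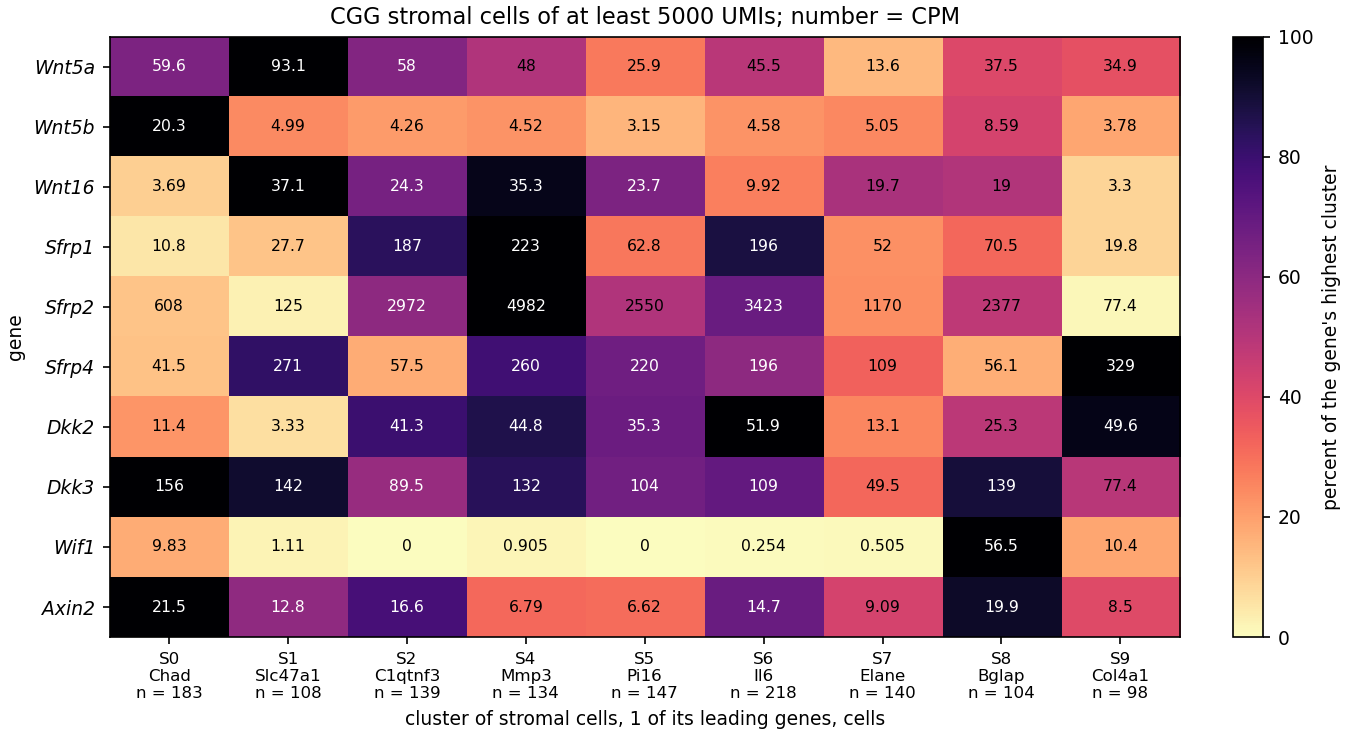
CPM of each gene (rows, printed) in clusters of CGG stromal cells with at least 5000 UMIs (columns, named by 1 leading gene, clusters of at least 50 cells); colour is the percentage of that gene's highest cluster. Sfrp1 and Sfrp2 share their highest cluster (Mmp3), Wnt5a and Wnt16 theirs (Slc47a1), Wnt5b, Dkk3 and Axin2 theirs (Chad), and Wif1 is highest in the Bglap cluster, where 2 cells hold 89 of its 125 UMIs. Some of these ranks are close. Wnt16 is at 37.1 CPM in the Slc47a1 and 35.3 CPM in the Mmp3 cluster. Sfrp1 is at 223 CPM in the Mmp3 and 196 CPM in the Il6 cluster.

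Between the hydrogels, 2 of the 8 members that passed the filter were at least 2-fold lower in CGG-Cit than in CGG stromal cells, where 5.3% of 9001 genes were, and 0 were at least 2-fold higher, against 3.03% of genes. The 2 were Sfrp2, at 855 CPM in CGG-Cit and 1992 CPM in CGG (ratio 0.429, 0.401 to 0.459), and Dkk2, at 9.93 and 32.2 CPM (0.309, 0.148 to 0.570), which rests on 10 UMIs in 5 CGG-Cit cells. Dkk2 passed the filter only through its CGG level, where it is high, so nothing is read from the count of lower members. The median log2 ratio was -0.12 over the 8 members and -0.02 over all genes tested. For Dkk3 (0.954, 0.773 to 1.17) and Sfrp1 (1.14, 0.928 to 1.39) the intervals include 1 and no change of 1.5-fold, and Sfrp4 stood at 1.35 (1.17 to 1.56). For Wnt5a (0.871, 0.613 to 1.20), Wnt16 (1.15, 0.688 to 1.82), Axin2 (0.631, 0.270 to 1.26), Wnt5b (1.42, 0.639 to 2.75) and Wif1 (0.722, 0.232 to 1.71) the intervals include both 1 and a change of over 1.5-fold, so a change of that size is not excluded.

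The makeup of the 56 CGG-Cit stromal cells differed from that of the CGG cells, and this was measured beside the result. Dura-like cells were 12 of 56 in CGG-Cit and 130 of 3619 in CGG. The 12 CGG-Cit cells held 169 of the 205 Sfrp4 UMIs and none of the 861 Sfrp2 UMIs. Without dura-like cells in either library 2 of 9 members, now Sfrp4 and Dkk2, were at least 2-fold lower (7.35% of genes) and 0 higher (2.59%). Nothing is read from that count of lower members either. The Sfrp2 ratio became 0.513 (0.479 to 0.549), which is no longer 2-fold, the Dkk2 ratio 0.260 (0.104 to 0.537), and the Sfrp4 ratio changed direction, being 1.35 (1.17 to 1.56) with these cells and 0.328 (0.229 to 0.455) without, with 36 Sfrp4 UMIs left in 44 CGG-Cit cells. Among stromal cells with at least 5000 UMIs, where the depth gap is small (median 18415 UMIs in CGG-Cit and 16155 in CGG), the Sfrp2 ratio was 0.408 and the Dkk2 ratio 0.297, again 2 of 8 members lower (4.15% of genes) and 0 higher (4.02%). Of these deep cells, 12 of 51 CGG-Cit and 108 of 1353 CGG cells fell in the Slc47a1 cluster, and 12 and 98 in the Col4a1 cluster, the 2 lowest in Sfrp2 among clusters of at least 50 cells. When the CGG cluster levels were weighted to the CGG-Cit mix, Sfrp2 stood at 861 CPM in CGG-Cit, against 1249 CPM in CGG at that mix, a ratio of 0.689 (0.644 to 0.737), and Dkk2 gave 0.401 (0.192 to 0.737). Sfrp1 at the same mix gave 1.56 (1.27 to 1.90). Sfrp4 gave 1.04 (0.904 to 1.20), an interval that includes 1, unlike its ratios with and without dura-like cells. The intervals at this mix cover counting error of the CGG-Cit UMIs only, with the weighted CGG level taken as fixed. Both the hydrogel and the library differ between these cells and cannot be told apart.

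**Figure D3:**
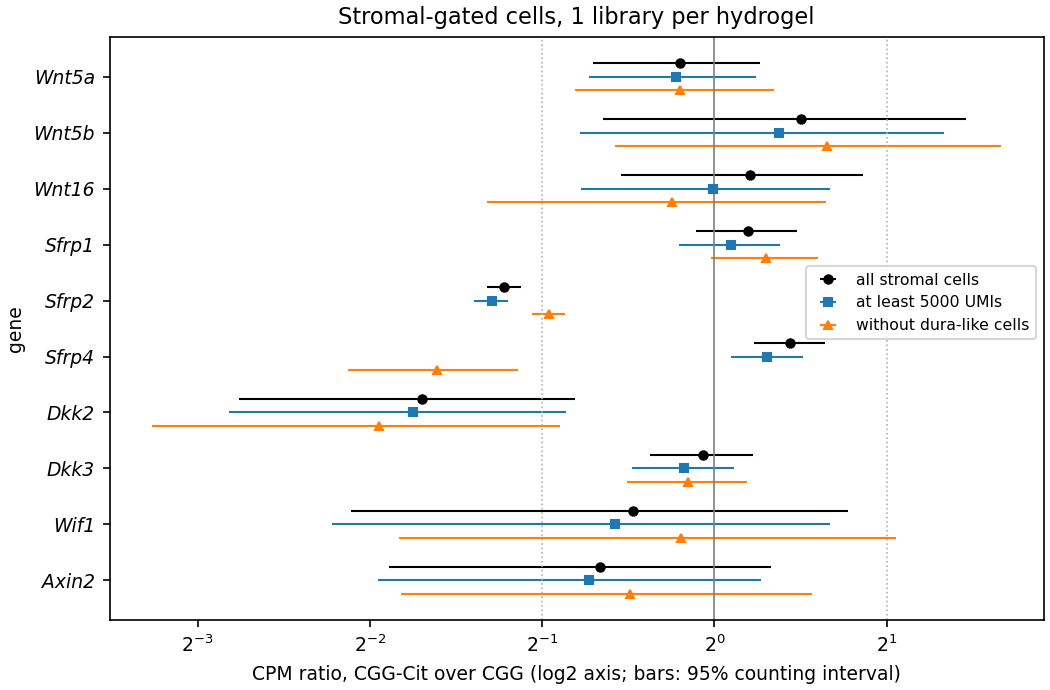
Ratio of CPM in CGG-Cit over CGG stromal cells for each gene (log2 axis) with its 95% counting interval, for all stromal cells (circles), those with at least 5000 UMIs (squares) and without dura-like cells (triangles); dotted lines mark 2-fold. Sfrp2 and Dkk2 lie left of 1 in all 3 sets, and Sfrp4 lies right of 1 with dura-like cells and at 0.328 without them.

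At least 1 of the 6 regulator genes was found in 53 of 56 CGG-Cit stromal cells (94.6%) and 3111 of 3619 CGG stromal cells (86.0%). At a depth of 2000 UMIs the shares were 69.8% and 80.6%, against 0.232% and 13.7% of B lineage cells. Sfrp2 made up much of this, and without it the other 5 genes were found in 52.8% of CGG-Cit and 43.0% of CGG stromal cells, against 0.0872% and 3.19% of B lineage cells. At least 1 of the 3 ligands was found at that depth in 9.43% of CGG-Cit and 11.8% of CGG stromal cells. A regulator UMI was also held by all 5 ligand-positive CGG-Cit cells and by 83.0% of 271 ligand-positive CGG cells, which is close to its share in all CGG stromal cells.

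Within CGG stromal cells thinned to 2000 UMIs, the SFRP genes did not mark the same cells to the same degree. Of 298 Sfrp1-positive cells 90.6% also held Sfrp2, against 67.0% of Sfrp1-negative cells. Of 402 Sfrp4-positive cells 73.4% held Sfrp2, against 69.4% of the others. Wif1, with only 18 positive cells at this depth, was found in 4 of 1607 Sfrp2-positive cells (0.249%) and in 2.04% of Sfrp2-negative cells. Without thinning the shares were 1.74% and 2.01% in all CGG stromal cells. In those of at least 5000 UMIs they were 3.30% and 6.5%. Axin2 was found in 10 of 200 Wnt5a-positive cells (5%) and in 1.67% of Wnt5a-negative cells. For Wnt16 it was 2 of 49 positive cells against 1.92% of negative ones, and for Wnt5b 0 of 32 against 1.99%. With only 32 Wnt5b-positive cells, nothing is read from that 0. Without thinning, in cells of at least 5000 UMIs, Axin2 was found in 32.1% of Wnt5b-positive and 15.6% of Wnt5b-negative cells. There the shares were 23.7% and 12.2% for Wnt5a, and 19.9% and 16.7% for Wnt16. These cells come from 1 library, so the shares are descriptions.

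**Figure D4:**
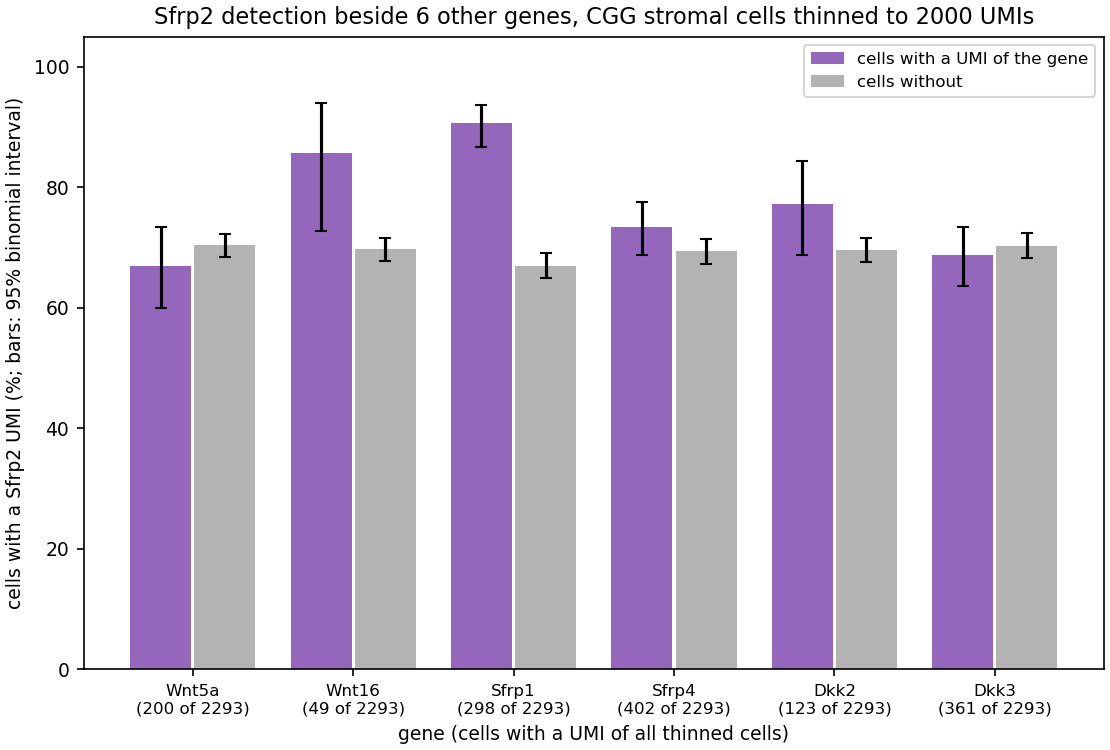
Percentage of CGG stromal cells with an Sfrp2 UMI among cells with (purple) and without (grey) a UMI of 6 other genes, all cells thinned to 2000 UMIs; bars show 95% binomial intervals, and the number of cells with the gene is given under its name. Wnt5b, Wif1 and Axin2, detected in 18 to 45 thinned cells, are left out. Among the 6 genes shown the widest gap is that of Sfrp1, 90.6% against 67.0%. Of those left out, Wif1 had 22.2% against 70.5%, Wnt5b 46.9% against 70.4% and Axin2 71.1% against 70.1%.

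The wider pathway was read from a list of 89 genes that includes the members. Of its 79 other genes, 39 passed the filter in the comparison of hydrogels, of which 1 was at least 2-fold higher in CGG-Cit stromal cells, where 3.03% of all genes were, and 3 were at least 2-fold lower, where 5.3% of all genes were. The count of higher genes lies near what its share gives. Wnt2 and Lgr5, both among the lower genes, passed the filter only through their CGG level, so nothing is read from the count of lower genes. The higher one was Rspo3, an R-spondin that strengthens Wnt signals, at 221 CPM in CGG-Cit and 62.9 CPM in CGG (ratio 3.52, 3.05 to 4.05). In CGG its highest cluster was the Slc47a1 cluster, at 322 CPM. The lower ones were the ligands Wnt2, at 2.98 CPM in CGG-Cit (3 UMIs) and 41.8 CPM in CGG (0.0713, 0.0147 to 0.209), and Wnt9a, at 30.8 and 82.8 CPM (0.372, 0.252 to 0.529), and the R-spondin receptor Lgr5, at 0.993 CPM (1 UMI) and 15.6 CPM (0.0638, 0.00161 to 0.357). Wnt2 was highest in the Pi16 cluster, at 160 CPM, and Wnt9a in the Chad cluster, at 186 CPM. Wls, which carries Wnt proteins to the cell surface, was level at 258 CPM in CGG-Cit and 268 CPM in CGG (0.962, 0.847 to 1.09). Dkk1 and Sost, inhibitors well known from osteoblasts and osteocytes and named here after their values were seen, had 0 UMIs in CGG-Cit stromal cells and 12 and 2 UMIs in CGG. The CGG levels were only 0.411 and 0.0685 CPM, and the ratio intervals run up to 10.4 and 154. The 0 therefore shows no difference between the libraries.

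Receptors and transducers divided by cell type. In CGG, Fzd1 (144 CPM), Fzd2 (116 CPM), Fzd7 (51.2 CPM) and Lrp6 (148 CPM) were highest in stromal cells, while Fzd4 (172 CPM) and Fzd6 (89.0 CPM), along with Ctnnb1, the beta-catenin gene (621 CPM), were highest in endothelial cells. Tcf7, a nuclear partner of beta-catenin in T cells, stood at 190 CPM in CGG-Cit and 166 CPM in CGG T and NK cells, the class where Axin2 was highest, and at 4.96 and 4.69 CPM in stromal cells. Lef1 was highest in B lineage cells, at 176 CPM in CGG-Cit and 257 CPM in CGG.

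By Pearson r of log2(CPM + 1) over 12 CGG cell classes and stromal subtypes, Wnt16 and Sfrp4 were each among the 3 genes most like the other (r = 0.994), and Scrn1 was the gene most like Wnt16 (0.999). Sfrp2 was most like Wisp2 (0.995), Sfrp1 most like Igsf10 (0.993), Dkk2 most like Prss23 (0.988) and Axin2 most like Izumo4 (0.954). Wif1 had Rbpjl (0.969) and Chad (0.962) nearest. These 12 points share 1 library and its free RNA, and most of the spread is that between stromal and other cells.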

How the data were processed

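Single-cell RNA was profiled in 2 libraries, 1 per hydrogel. The deposited files hold raw counts of UMIs per gene and cell barcode, made with Cell Ranger 4.0.0 per the file headers; per the submitters' processing notes Cell Ranger 3.0 and build mm10 were used. No column of the files was left unused. The members and lists were chosen with earlier results of these data known.

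Barcodes with at least 200 genes and at most 20% mitochondrial UMIs were kept. Doublets called by Scrublet were removed (560 in CGG-Cit); in CGG, where Scrublet called 1 barcode, the 1231 highest scores were removed instead, a share of 10.03%. A cell was gated to the class with most markers detected, with at least 3 markers and 2 more than the next class; stromal subtypes needed 3 markers and a lead of 1. UMIs were summed per class and library and divided by the class total (CPM). Exact Poisson intervals (CPM), Clopper-Pearson intervals (shares) and conditional binomial intervals (ratios) were used at 95%. For ratios at the common cluster mix, the Poisson interval of the CGG-Cit level was divided by the weighted CGG level, taken as fixed. These cover counting error only, since cells of 1 library are not replicates. Called means at least 4-fold (between classes) or 2-fold (between hydrogels or within stromal cells), over genes with at least 20 UMIs in both groups together and 10 CPM in the higher. A gene at 0 was set to a floor of 3 UMIs. Clusters (Leiden, scanpy 1.11.5, 2000 variable genes) were made without the 89 pathway genes. The calculations were tested on simulated data.

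All 10 members are named. Other pathway genes are named where they reached 20 CPM in a CGG class of at least 50 cells. Likeness was computed for members with at least 50 CGG UMIs, naming from the 3 genes of highest r. Levels are not compared between genes, since 3′ UMI counts carry no length scale.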

Additional observations from a re-analysis of the deposited data

How the results depend on the processing

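No paired analysis was possible because each hydrogel has 1 library. Sfrp2 and Dkk2 were the members lower in CGG-Cit under the 12 other settings of gates, filters, doublets, depth and scaling that bear on them, but without dura-like cells they were Sfrp4 and Dkk2, and at a common stromal cluster mix the count was 1 (Dkk2). These last 2 settings, the minimum of 5000 UMIs, the addition of mixed cells and Wif1 without its 2 highest cells were chosen after seeing the data. The log2 ratio of Sfrp2 ranged from -1.29 (cells of at least 5000 UMIs) to -0.54 (common mix), against -1.22. With no filter on low genes, 10 members in place of 6 were at least 4-fold higher in CGG-Cit stromal than B lineage cells, the added ones resting on 5 to 10 stromal UMIs. Of 600 values for single members or for all genes under 18 other settings, 498 stayed within the counting interval or 1.5 times, 102 moved and no called value changed sign. The log2 ratio of Sfrp4, which was not called, was 0.44 with all stromal cells and -1.61 without dura-like cells. At the common cluster mix the Sfrp4 ratio was 1.04, before taking log2. The strictest gate left 46 CGG-Cit and 2642 CGG stromal cells, and clusters in place of gates gave 74 and 5420. The 56 CGG-Cit stromal cells limit every comparison of hydrogels, and no level has a replicate.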
